A study of Mus musculus with 4 samples.

Results

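Antibody genes were followed in RNA of mouse small-intestinal crypts: every row of the 2 deposited comparison tables whose symbol starts as an immunoglobulin heavy, kappa or lambda chain gene, together with Jchain. This rule took 146 of the 27425 genes listed in either table: 142 of 25522 in the table without tetracycline and 140 of 26085 in the table with it, with 136 in both. They comprised 6 heavy-chain constant genes, 41 heavy-chain variable (V) segments, the kappa constant gene Igkc, 90 kappa V segments, 3 lambda constant genes, 3 lambda V segments and Jchain. The last member, Ighmbp2, meets the rule by its letters alone and encodes a helicase; it was kept in the counts over all members and left out of every sum. None of the members was a diversity or joining segment; heavy-chain joining segments fall outside the rule.

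The mice were male C57BL/6J animals of 9 weeks. There were 4 labelled samples, 1 in each of 4 groups: fed or fasted for 24 h, without tetracycline or with tetracycline for 21 days, the drug being meant to remove what the labels call AKK. Crypts were shaken from the tissue in a buffer with EDTA and dissociated with trypsin, and the labels call the cells small intestinal epithelial cells. Each table held the authors' own test of fasted against fed mice. The deposited means could be resolved into whole counts of 2 fasted and 2 fed libraries per table. Nothing ties these 8 libraries to the labelled samples or says whether they came from separate mice, so p-values measure only the spread between these libraries, which may be technical. Within each side, library 1 has the larger size factor, the divisor that scales its counts to a common depth. Values below are normalized counts, that is, counts divided by the size factor.

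An antibody is built from 2 kinds of chain. A B cell joins 1 V segment to short joining (and, in the heavy chain, diversity) segments and expresses the result together with a constant region, which sets the antibody class. Naive B cells carry IgM and IgD on their surface, whereas plasma cells secrete antibody, in the gut wall mostly IgA. The J chain links IgA and IgM units into polymers, which the epithelial receptor Pigr carries across the epithelium into the lumen. Rearranged antibody genes are expressed by B-lineage cells and not by epithelial cells. In bulk RNA, fewer such cells and less antibody RNA per cell cannot be told apart.

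V segments of a family are near-copies of each other, and reads from the shared stretches have to be divided among them by the quantification. Of the 134 V segments with a sequence, the median segment shared 45.0% of its 31-base words with another immunoglobulin gene, 58 shared over 50% and 5 shared none. The stretches below show how close the members named most often here are. They come from GENCODE M21 transcripts (GRCm38) and run 5′ to 3′; capitals mark bases that differ from the first sequence of each set. The first set, from the kappa locus on chromosome 6, holds the last 120 bases of 3 segments called lower in fasted mice without tetracycline: Igkv6-15 (chr6:70406469-70406992, minus strand), Igkv6-20 (chr6:70335841-70336507, minus strand) and Igkv6-23 (chr6:70260409-70260955, minus strand).
Igkv6-15: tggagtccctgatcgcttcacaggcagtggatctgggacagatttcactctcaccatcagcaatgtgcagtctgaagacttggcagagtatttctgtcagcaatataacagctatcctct
Igkv6-20: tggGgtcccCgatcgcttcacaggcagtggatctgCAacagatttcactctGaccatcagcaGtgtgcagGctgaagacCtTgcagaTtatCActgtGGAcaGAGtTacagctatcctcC
Igkv6-23: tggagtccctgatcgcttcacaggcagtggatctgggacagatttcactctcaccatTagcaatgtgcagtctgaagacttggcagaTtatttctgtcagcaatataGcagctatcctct
Igkv6-20 differed from Igkv6-15 at 20 of these 120 bases and Igkv6-23 at 3.

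The second set holds the last 120 bases of the kappa segments Igkv1-110 (chr6:68270485-68271267, plus strand) and Igkv1-117 (chr6:68121046-68121827, plus strand). The first of them took the largest share of kappa V counts in 4 of the 8 libraries.
Igkv1-110: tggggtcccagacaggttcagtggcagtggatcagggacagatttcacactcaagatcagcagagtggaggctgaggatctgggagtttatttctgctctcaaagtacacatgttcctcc
Igkv1-117: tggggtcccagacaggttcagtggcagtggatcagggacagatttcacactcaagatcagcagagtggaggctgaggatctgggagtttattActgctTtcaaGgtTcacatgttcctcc
Only 4 of the 120 bases differed, and Igkv1-110 shared 63.6% of its 31-base words with other immunoglobulin genes.

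The third set shows the start of the 3 lambda constant genes on chromosome 16, of which 2 passed the test and 1 did not: Iglc2 (chr16:19198396-19200351), Iglc3 (chr16:19065230-19065681) and Iglc1 (chr16:19061618-19062071), all on the minus strand.
Iglc2: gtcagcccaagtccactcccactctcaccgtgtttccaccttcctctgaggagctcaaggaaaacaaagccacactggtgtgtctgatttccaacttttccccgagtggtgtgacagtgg
Iglc3: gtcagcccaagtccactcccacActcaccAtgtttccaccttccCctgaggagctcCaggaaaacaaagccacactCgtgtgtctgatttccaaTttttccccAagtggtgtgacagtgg
Iglc1: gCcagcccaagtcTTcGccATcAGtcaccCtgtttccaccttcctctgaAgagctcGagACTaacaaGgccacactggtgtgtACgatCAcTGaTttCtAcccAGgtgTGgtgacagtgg
Iglc3 differed from Iglc2 at 7 bases and Iglc1 at 28. By contrast, Igha, Ighm, Ighd and Igkc shared no 31-base word with another immunoglobulin gene.

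Immunoglobulin RNA was a small part of these libraries, 0.0163% of all normalized counts without tetracycline and 0.0132% with it. All 10 epithelial markers, such as Epcam and Vil1, were listed, with means from 803 to 184435 normalized counts without tetracycline. All 15 B cell, 13 T cell, 11 myeloid and 10 stromal markers were listed as well, with T cell means of up to 15688. Being listed therefore does not check the labelled cell type. Size factors of the 4 libraries differed by up to 1.17-fold without tetracycline and by up to 1.75-fold with it.

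The first comparison asked what a 24 h fast did in mice without tetracycline. Every antibody gene called was lower in the fasted mice, and the summed level of each class was lower in both fasted libraries than in both fed ones. The summed immunoglobulin level was 2751 and 7539 normalized counts in the fasted libraries and 11217 and 21551 in the fed ones. Both fasted libraries lay below both fed ones, and the mean was 3.18-fold higher in fed mice, a log2 change of -1.67. Without the second fasted library the log2 change was -2.57, and without the first it was -1.12; the second held 2.74 times the level of the first.

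Of the 81 members that the authors' deposited table gave an adjusted p, 19 passed an adjusted p of 0.05 (DESeq2's Wald test, Benjamini-Hochberg), all 19 lower in fasted mice. That is 23.5% of the members tested, against a background of 2.27% of all genes, 1.22% called lower and 1.06% called higher. The 19 were 3 of 5 heavy constant genes tested, 1 of 16 heavy V segments, 11 of 51 kappa V segments, 2 of 3 lambda constant genes, 1 of 3 lambda V segments and Jchain. All 19 had both fasted libraries below both fed ones. At an unadjusted p under 0.05 there were 54 members lower and 0 higher of 142 listed, where the background was 4.49% of all genes lower and 3.33% higher. By sign, 128 members were lower and 14 higher. The median log2 change of the members was -2.34, against 0.02 over all genes. With the members that had 0 counts on a whole side set at the bound that 3 counts per library allow, and 12 left out because both sides were at or under it, the median was -1.90.

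**Figure D1:**
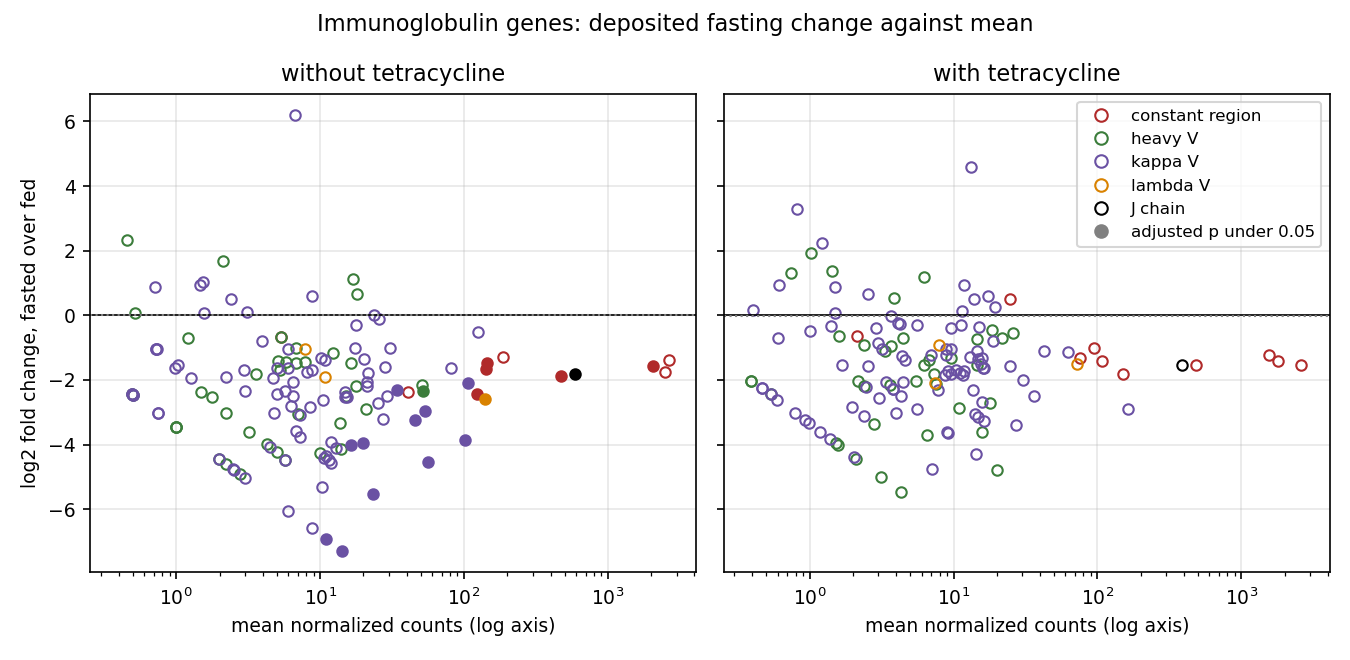
Deposited log2 fold change of fasted over fed mice (vertical axis, negative is lower in fasted) against mean normalized counts (log axis) for each immunoglobulin gene, without and with tetracycline; filled points passed an adjusted p of 0.05, and the dotted line is the median of all genes. Without tetracycline 19 points are filled and all lie below 0, and with tetracycline no point is filled. Fitted changes of genes with 0 counts on a whole side depend on the fit and are no bounds.

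Not every low member could be counted this way, so the order of the 4 libraries was also read. Of the 136 members with a mean of up to 200 normalized counts, 70 (51.5%) had both fasted libraries below both fed ones and 0 had them above. Over all genes of that range these shares were 16.2% below and 22.1% above. Of the 6 members with larger means, Igha, Igkc, Ighm, Ighd and Jchain had both fasted libraries below both fed ones, and the libraries of Ighmbp2 overlapped.

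Among heavy-chain constant genes, Ighm, which encodes the constant region of IgM, had 667 and 1424 normalized counts in the fasted libraries and 2386 and 3769 in the fed ones. It fell by 1.56 on the log2 scale (SE 0.39, adjusted p 0.00495) per the authors' deposited table. Ighd, for IgD of naive B cells, had 126 and 277 in fasted against 527 and 952 in fed libraries. Both genes lie side by side on chromosome 12 (Ighm chr12:113418558-113422730, Ighd chr12:113406604-113416324, minus strand), and for both the groups did not overlap. Ighd fell by 1.88 (SE 0.43, adjusted p 0.0017) per the authors' deposited table.

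Igha (chr12:113254830-113260236), the constant gene of the secreted IgA of the gut, had 711 and 2215 normalized counts in fasted against 2642 and 5032 in fed libraries. The groups did not overlap, but the higher fasted library came close to the lower fed one. In the authors' deposited table the log2 change was -1.39 (SE 0.47) and did not pass the test (adjusted p 0.0959).

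The IgG subclass gene Ighg2b (chr12:113302965-113307933) had 65.1 and 87.1 normalized counts in fasted against 176 and 249 in fed libraries. It fell by 1.48 (SE 0.42, adjusted p 0.0213) per the authors' deposited table. Ighg3, another IgG subclass, had 5.50 and 21.5 against 65.5 and 71.3, with an adjusted p of 0.0526 per the authors' deposited table, just over the threshold. The groups of these 2 subclass genes did not overlap. Ighg2c was barely detected, at 1.83 to 9.04 normalized counts over the 4 libraries, and had no adjusted p.

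Light-chain constant genes had lower means in fasted mice as well. Igkc (chr6:70726435-70726966), the only kappa constant gene, had 543 and 1727 normalized counts in fasted against 2536 and 5196 in fed libraries. The groups did not overlap, yet its standard error was large: the log2 change of -1.77 (SE 0.90) had an adjusted p of 0.462 per the authors' deposited table. Iglc2 had 15.6 and 62.4 against 128 and 287, and fell by 2.42 (SE 0.62, adjusted p 0.00756) per the authors' deposited table. Iglc3, whose first bases are close to those of Iglc2, had 49.5 and 87.1 against 139 and 293. It fell by 1.67 (SE 0.50, adjusted p 0.0387) per the authors' deposited table. For Iglc1 the groups overlapped, with 40.4 and 174 in fasted against 90.3 and 439 in fed libraries, and the adjusted p was 0.846 per the authors' deposited table.

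Jchain (chr5:88519809-88527891, minus strand) had 115 and 408 normalized counts in fasted against 588 and 1252 in fed libraries. It fell by 1.82 (SE 0.52, adjusted p 0.0267) per the authors' deposited table, and the groups did not overlap. Ighmbp2, the helicase gene, had 550 and 496 against 533 and 530, with a log2 change of -0.02 (SE 0.29) per the authors' deposited table.

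Per kilobase of exon, Igkc had the highest level of the constant genes in fed mice without tetracycline, at 7267 normalized counts per kilobase. Ighm followed at 1632 and Igha at 1438, with libraries that overlapped, so these 2 could not be ranked. Iglc1, Iglc3, Ighd, Jchain and Iglc2 lay between 583 and 339 per kilobase, and their libraries overlapped too. The IgG genes were lower, with Ighg2b at 79.3, Ighg3 at 27.2 and Ighg2c at 4.91 per kilobase; Ighg1, whose row carries no symbol, was not ranked.

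**Figure D2:**
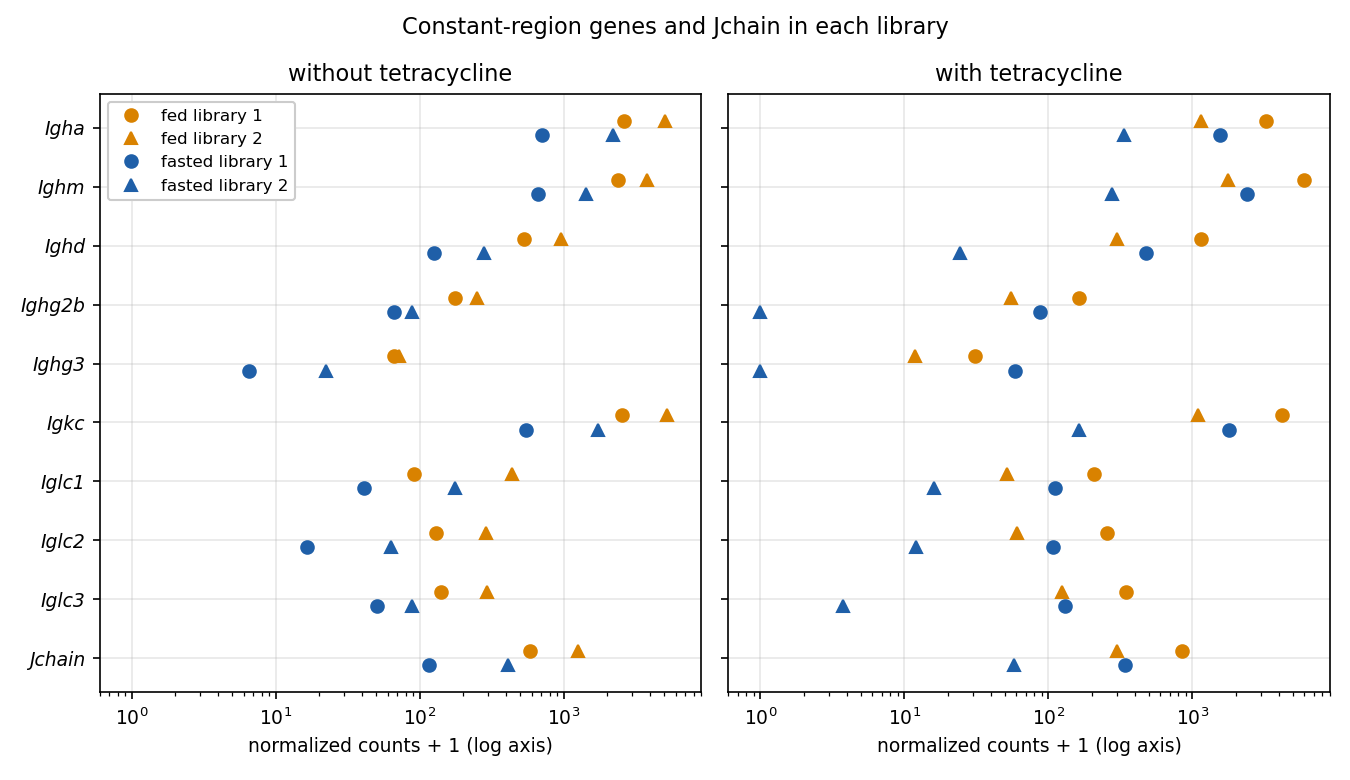
Normalized counts plus 1 (log axis) of 9 constant-region genes and Jchain in the 2 fed (orange) and 2 fasted (blue) libraries, without tetracycline (left) and with it (right); circles are library 1 and triangles library 2 of each side. Without tetracycline both fasted libraries lie below both fed ones for each gene drawn except Iglc1, and with tetracycline fasted library 1 lies above fed library 2 for each gene drawn. Ighg2c is not drawn.

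The 5 called members with the largest log2 changes were all kappa V segments: Igkv8-28, Igkv2-109, Igkv12-44, Igkv12-46 and Igkv8-27. Igkv6-15, not one of these 5, had 9.17 and 17.2 normalized counts in fasted against 127 and 254 in fed libraries. It fell by 3.87 (SE 0.57, adjusted p 1.08e-08) per the authors' deposited table, the smallest adjusted p of any member. Igkv12-46 had 0.917 and 8.60 against 55.6 and 160, and fell by 4.54 (SE 0.85, adjusted p 2.41e-05) per the authors' deposited table. A V segment encodes most of the variable domain, the part of the chain that contacts antigen.

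Igkv6-20, printed above, had 2.75 and 15.1 normalized counts in fasted against 77.4 and 87.4 in fed libraries (log2 change -3.24, SE 0.75, adjusted p 0.00166 per the authors' deposited table). Igkv4-59 had 11.9 and 12.9 against 51.6 and 140 (log2 change -2.95, SE 0.68, adjusted p 0.00171 per the authors' deposited table). Igkv1-110 had 13.8 and 67.8 against 182 and 164 (log2 change -2.09, SE 0.62, adjusted p 0.0359 per the authors' deposited table). In all 3 the fasted libraries lay below the fed ones.

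For 2 called segments the fasted libraries held no count at all. Igkv8-28 (chr6:70143593-70144166) had 26.8 and 30.1 normalized counts in the fed libraries, which puts the fasted level at least 9.52-fold lower when 3 counts per library are taken as the floor. Igkv2-109 (chr6:68302427-68303158) had 19.8 and 24.1 in the fed libraries and was at least 7.35-fold lower. Igkv12-44 had 1 count in each fasted library and 91 counts in the fed ones together, a ratio of 45.9 (exact 95% counting interval 12.3 to 385, which covers counting error only). Their adjusted p values per the authors' deposited table were 0.0029 for Igkv8-28, 0.0104 for Igkv2-109 and 0.00182 for Igkv12-44. Igkv8-27 had 3.67 and 0 against 39.7 and 22.1, with an adjusted p of 0.046 per the authors' deposited table.

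The remaining called kappa segments, Igkv4-55 and Igkv6-23, were close to the threshold per the authors' deposited table (adjusted p 0.0484 and 0.0488). Igkv6-23 had 8.26 and 15.1 normalized counts in fasted against 59.5 and 54.3 in fed libraries. Outside the kappa locus, the lambda segment Iglv1 had 22.0 and 57.0 against 82.4 and 396, with a log2 change of -2.60 (SE 0.67, adjusted p 0.00771) per the authors' deposited table. Ighv1-53 was the only heavy V segment called by its symbol. It had 21.1 and 12.9 against 96.3 and 76.4, and fell by 2.34 (SE 0.60, adjusted p 0.0075) per the authors' deposited table. Among all 13 called V segments the share of 31-base words found in another immunoglobulin gene ran from 19.4% to 87.0% with a median of 55.5%, so their single counts are less certain than their sums.

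Abundant segments were not all called. Igkv1-117 had 18.4 and 62.4 normalized counts in fasted against 108 and 138 in fed libraries, and its adjusted p was 0.16 per the authors' deposited table. Ighv1-64 had 7.34 and 30.1 against 66.5 and 99.5, with an adjusted p of 0.0774 per the authors' deposited table. Neither segment's groups overlapped. Igkv10-96 did overlap: 14.7 and 189 in fasted against 113 and 181 in fed libraries, with a log2 change of -0.53 (SE 1.47) per the authors' deposited table. The high value came from the second fasted library alone, where this segment made up 24.8% (95% Wilson interval 21.7% to 28.1%) of kappa V counts.

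Sums over the rows of a family depend less on how reads are divided among near-copies, although rows without a symbol stay outside them. Of the 16 kappa families with a mean of at least 5 normalized counts, 16 had a lower sum in fasted mice and 12 had both fasted libraries below both fed ones. Over single genes with a mean of 5 to 200, 19.4% had that order, but sums over several rows are not like single genes. The log2 changes of the kappa families ran from -4.65 in Igkv15 to -0.58 in Igkv10, with a median of -2.50. Igkv6, the family of the first printed set, had 35.8 and 88.2 in fasted against 311 and 570 in fed libraries. Of 9 heavy families of that level, 8 were lower and 5 did not overlap, with a median of -1.75, over the rows with a symbol. GENCODE M21 names 53 more heavy V rows in this table, and with them, an alternative chosen after seeing the data, 12 of 12 heavy families were lower and 8 did not overlap, with a median of -1.98. Ighv3 was the family that turned. Its 2 rows with a symbol summed to 0 and 46.2 in fasted against 4.96 and 24.1 in fed libraries, and all 6 rows to 11.0 and 57.0 against 119 and 128. By class, the summed log2 change was -1.50 for heavy constant genes, -1.77 for Igkc, -1.68 for lambda constant genes, -1.81 for heavy V, -2.04 for kappa V and -2.44 for lambda V segments, and in each class both fasted libraries lay below both fed ones.

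The second comparison repeated the fast in mice given tetracycline. Of 140 members, 120 had a negative log2 change here, but the libraries of each side lay far apart and no member passed the test. The summed immunoglobulin level was 8251 and 1006 normalized counts in the fasted libraries and 19351 and 5870 in the fed ones. The first fasted library lay above the second fed library, so the groups overlapped. The log2 change of the sum was -1.44, and it moved widely when a library was left out: -3.65 and -0.61 without the first and the second fasted library, -0.34 and -2.06 without the first and the second fed library. The highest library held 19.2 times the level of the lowest, compared with 7.83 times in the table without tetracycline.

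**Figure D3:**
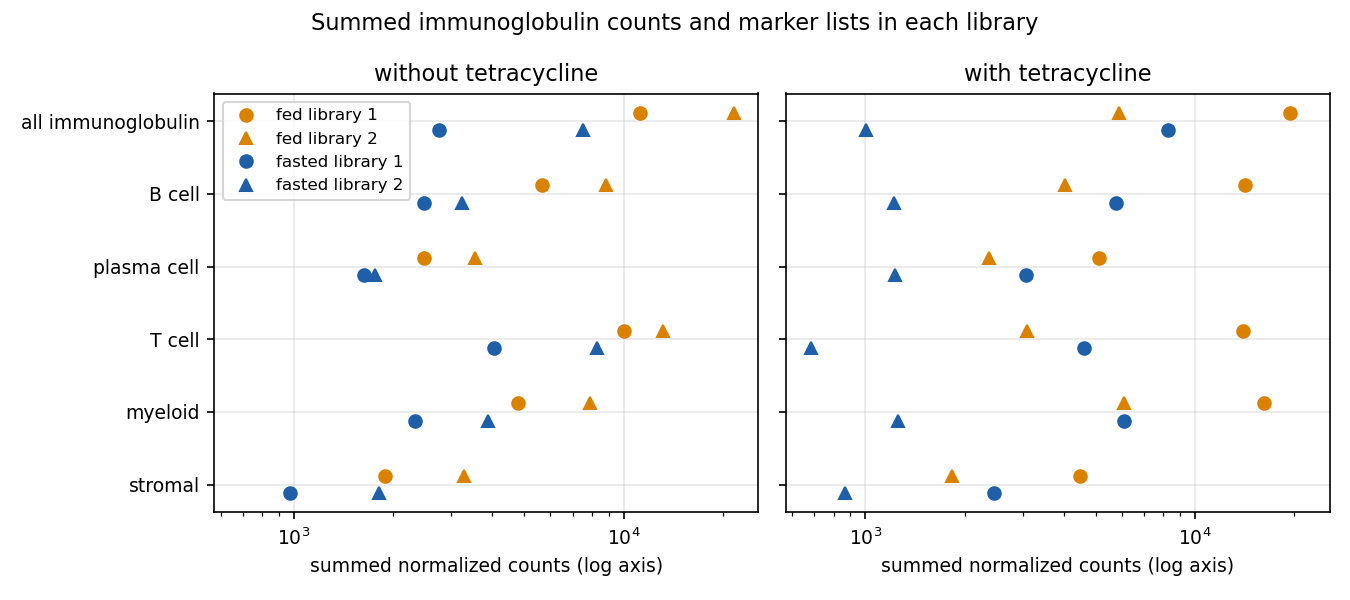
Summed normalized counts (log axis) of all immunoglobulin genes and of 5 marker lists in the 2 fed (orange) and 2 fasted (blue) libraries, without tetracycline (left) and with it (right). In each panel the 4 libraries stand in the same order in all rows, and with tetracycline the first fasted library lies above the second fed library in every row.

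Of 69 members given an adjusted p by the authors' deposited table with tetracycline, 0 passed 0.05 by DESeq2, where the background was 0.6% of all genes, 0.267% lower and 0.333% higher. At an unadjusted p under 0.05 there were 12 members lower and 0 higher of 140, against a background of 2.23% of genes lower and 1.62% higher. The smallest adjusted p per the authors' deposited table was 0.13, for the heavy segment Ighv7-3, with 2.47 and 0 normalized counts in fasted against 64.6 and 12.9 in fed libraries. By sign 120 members were lower and 20 higher. The median log2 change was -1.54, against -0.02 over all genes, and -1.38 with 4 members at 0 on a whole side set at their bound and 15 left out because both sides were at or under it. Of the 134 members with a mean of up to 200, 37 (27.6%) had both fasted libraries below both fed ones, against 15.2% of all genes, and 1 had them above, against 14.9%.

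Ighm, Igha and Igkc stood in the order of the sums in this table. Ighm had 2389 and 277 normalized counts in fasted against 6002 and 1755 in fed libraries (log2 change -1.54, SE 0.90, adjusted p 0.99991 per the authors' deposited table). Igha had 1545 and 332 against 3234 and 1145 (log2 change -1.22, SE 0.77, per the authors' deposited table). Igkc had 1799 and 162 against 4174 and 1098 (log2 change -1.43, SE 0.95, per the authors' deposited table). In all 3 the first fasted library exceeded the second fed library. Jchain had 337 and 56.4 against 848 and 300, with a log2 change of -1.54 (SE 0.83) per the authors' deposited table. Ighg2b had 86.4 and 0 against 161 and 53.9, and Ighg3 had 57.6 and 0 against 29.9 and 10.8; in the second fasted library, where both were at 0, 3 counts would be 4.13 normalized counts. Ighd ran from 23.4 in the second fasted to 1139 in the first fed library.

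The 19 members called without tetracycline were all listed here, and all 19 had a negative log2 change, from -3.63 to -0.39, per the authors' deposited table with tetracycline. In 5 of them, Igkv1-110, Igkv2-109, Igkv4-59, Igkv6-20 and Iglv1, both fasted libraries lay below both fed ones, where the background was 15.2% of genes with a mean of up to 200. Igkv1-110 was at 64.2 and 12.4 in fasted against 504 and 75.5 in fed libraries, and its log2 change was -2.91 (SE 0.97, adjusted p 0.244) per the authors' deposited table. Igkv6-15, which led the other table, was at 16.5 and 0 against 26.8 and 16.2. Standard errors of the 19 ran from 0.39 to 1.82 per the authors' deposited table without tetracycline and from 0.83 to 2.87 in the table with it.

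Of the V families with a mean of at least 5, 13 of 16 kappa families had a lower sum in fasted mice with tetracycline, 4 of them without overlap (Igkv6, Igkv13, Igkv14 and Igkv19), and the median log2 change was -1.42. Igkv15, Igkv16 and Igkv9 were the exceptions, at 0.49, 0.57 and 0.04. All 8 heavy families were lower over the rows with a symbol, 5 of them without overlap, with a median of -2.15. With the 48 heavy V rows named by GENCODE M21 they were 12 of 12, with 7 that did not overlap and a median of -1.61. Over single genes with a mean of 5 to 200, 16.5% had both fasted libraries below both fed ones with tetracycline. Sums over several rows are not like single genes here either.

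**Figure D4:**
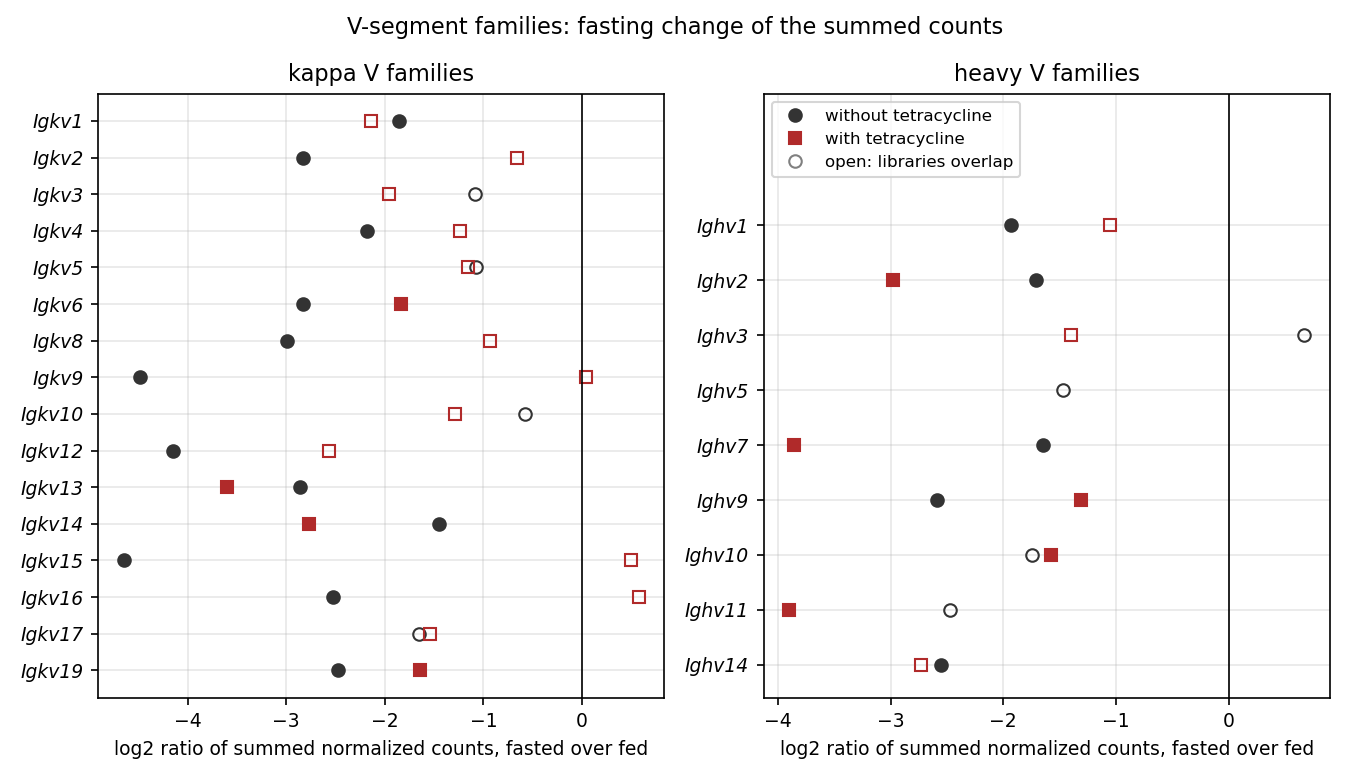
Log2 ratio of summed normalized counts, fasted over fed (horizontal axis, negative is lower in fasted), for each kappa (left) and heavy (right) V family with a mean of at least 5, over rows with a symbol; black circles are without and red squares with tetracycline, and filled symbols mark families whose fasted libraries both lie below the fed ones. Without tetracycline 12 of 16 kappa families are filled, and with tetracycline 4 of 16.

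Whether tetracycline altered the fasting change was tested per gene as the difference of the 2 deposited log2 changes over their combined standard error (Wald test, Benjamini-Hochberg over 17571 genes). Of 61 members tested, 0 passed, and 4 of all genes did (0.0228%). At an unadjusted p under 0.05 there were 3 members, each less negative or positive with tetracycline, where the background was 1.05% of genes. These were Igkv8-28, Igkv15-103 and Igkv9-120, and the smallest adjusted p of a member was 0.99997. For Ighm the difference was 0.02 (SE 0.98), for Igha 0.17 (SE 0.90), for Jchain 0.28 (SE 0.98) and for Igkv6-15 2.52 (SE 1.61). The median difference over the members tested was 0.88, with 48 of 61 positive, against a median of 0.00033 over all genes. With these standard errors, passing the test in 1 table and not in the other does not show that the fasting change differed.

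The balance of antibody classes could be read within each library, where scaling cancels. It was taken over the 6 heavy-chain constant genes with a symbol, which leaves out Ighg1. Without tetracycline, Igha made up 45.1% (95% Wilson interval 42.8% to 47.5%) and 54.9% (53.4% to 56.5%) of heavy-chain constant counts in the fasted libraries. In the fed libraries it made up 45.6% (44.3% to 46.8%) and 49.9% (48.9% to 50.9%), so the groups overlapped. With tetracycline the fasted libraries had 33.9% (32.7% to 35.2%) and 52.5% (47.9% to 57.0%) and the fed ones 30.6% (29.8% to 31.4%) and 35.1% (33.4% to 36.8%). The library with 52.5% was the one with the fewest immunoglobulin counts, 459 over the heavy constant genes. The other 3 libraries with tetracycline lay below all 4 without it, while Ighm and Ighd together made up 62.9% to 67.6% in those 3 and 42.2% to 50.3% in the 4. With Ighg1 counted in, an alternative chosen after seeing the data, Igha made up 43.9% and 52.7% in fasted against 43.6% and 47.2% in fed libraries without tetracycline. With tetracycline the Igha shares were then 30.8% and 51.2% against 25.6% and 32.4%, and the Ighm and Ighd shares 57.0% and 46.3% against 56.5% and 58.2%. With at most 4 libraries a side, and no way to tie them to mice, this difference was not tested.

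**Figure D5:**
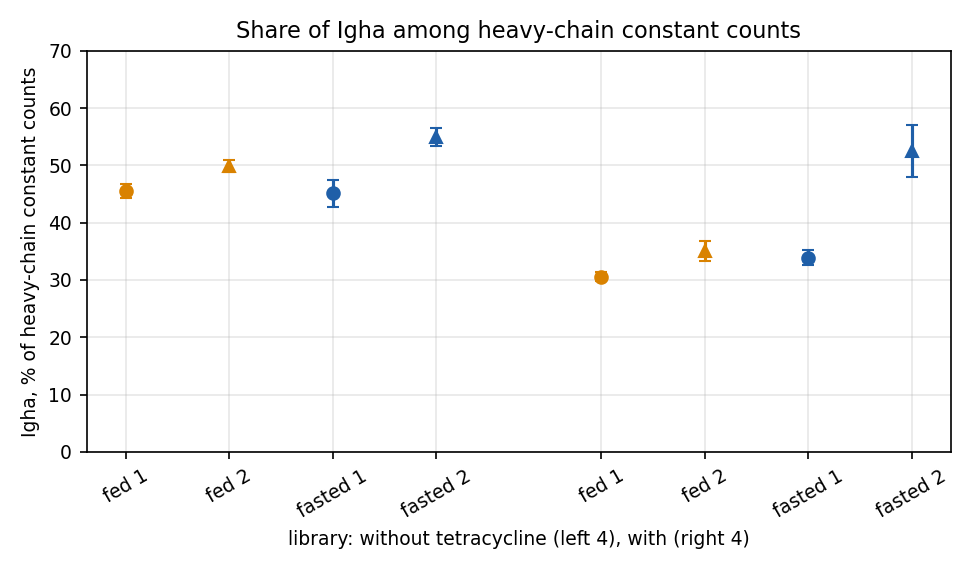
Share of Igha among the counts of the 6 heavy-chain constant genes with a symbol (vertical axis, percent) in each library, without tetracycline (left 4) and with it (right 4); bars are 95% Wilson intervals, which cover counting error only. With tetracycline 3 libraries lie between 30.6% and 35.1% and fasted library 2 at 52.5%, and the 4 libraries without tetracycline lie between 45.1% and 54.9%.

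The lambda share of light-chain constant counts ran from 12.3% to 17.6% over all 8 libraries. Counts of V segments were 0.185 and 0.172 times those of constant genes in fasted against 0.223 and 0.245 in fed libraries without tetracycline. With it they were 0.181 and 0.154 times against 0.190 and 0.211. Both fasted libraries lay below both fed ones without and with tetracycline, and this difference was not tested. Of 87 kappa V segments listed without tetracycline, 60 and 58 had a count in the fasted libraries and 73 and 81 in the fed ones; with tetracycline the numbers were 77 and 22 of 87, and 83 and 68. The library with the fewest immunoglobulin counts showed the fewest segments, and segment numbers were not compared at equal depth. Igkv1-110 was the leading kappa segment in fed libraries with tetracycline, with 22.6% (95% Wilson interval 21.1% to 24.2%) and 11.7% (9.34% to 14.5%) of kappa V counts.

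Without tetracycline, 12 of 15 B cell markers were called lower in fasted mice in the authors' deposited table (by DESeq2), against the background of 1.22% of genes called lower; none was called higher, and the median log2 change of the list was -2.00. They included Cr2, a complement receptor (-2.86, adjusted p 4.59e-08 per the authors' deposited table), Ms4a1, which encodes CD20 (-2.40, adjusted p 9.53e-07 per the authors' deposited table) and Cd79a, a signalling part of the B-cell receptor (-2.46, adjusted p 4.21e-06 per the authors' deposited table). Others called were Bank1, Fcer2a, Cd22 and Cd79b, and no marker of the list was missing from the table. The summed list was 2478 and 3233 normalized counts in fasted against 5654 and 8840 in fed libraries. Spib, the marker of the list with the highest mean, was not called. It gave 1471 and 1350 of the fasted sums and 1243 and 1572 of the fed sums, so it held a larger part of the fasted ones. With tetracycline 0 of 15 were called, all 15 had a negative sign, and the sum was 5761 and 1218 in fasted against 14179 and 4020 in fed libraries. Without tetracycline the ratio of immunoglobulin to B cell marker counts was 1.11 and 2.33 in fasted against 1.98 and 2.44 in fed libraries. With tetracycline the ratio was 1.43 and 0.826 against 1.36 and 1.46, and the groups overlapped both times. Spib is part of these B cell counts, and the ratio without Spib was not computed. Over T cell markers the ratio of immunoglobulin counts was 0.681 and 0.906 against 1.12 and 1.64 without tetracycline, with no overlap. With tetracycline it was 1.79 and 1.48 against 1.39 and 1.90. These sums held 10 T cell markers without tetracycline and 7 with it, so the ratios without and with it cannot be compared. Counts were recovered up to a mean of 3000 normalized counts. The markers left out included the most abundant, at a mean of 15688 without tetracycline and 35634 with it. The part of B-cell number in the antibody changes was not tested.

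Of the plasma cell markers, Mzb1, an endoplasmic reticulum protein that aids antibody secretion (log2 change -2.01, adjusted p 0.0126 per the authors' deposited table), and Pou2af1, a B-lineage transcription coactivator (-1.55, adjusted p 0.0186 per the authors' deposited table), were the 2 of 13 tested that were called, both lower, where 1.22% of all genes were. The median of the 14 listed was -0.32 without tetracycline and -0.54 with it, where 0 were called. Sdc1 and Xbp1, also abundant in epithelium, had log2 changes of -0.32 and 0.33 per the authors' deposited table without tetracycline. Tnfrsf17, a survival receptor of plasma cells, had no count in either fasted library without tetracycline, and 2 and 1 counts in the fed ones. The 9 plasma cell markers whose counts could be recovered summed to 1626 and 1758 in fasted against 2484 and 3543 in fed libraries, without tetracycline; with it they summed to 3063 and 1227 against 5093 and 2377. Tent5c alone gave 777 and 929 normalized counts of the fasted sums and 1198 and 1763 of the fed sums without tetracycline. Whether its counts came from plasma cells was not tested. Without tetracycline, the ratio of immunoglobulin to the counts of these 9 markers was 1.69 and 4.29 in fasted against 4.52 and 6.08 in fed libraries. The groups of this ratio did not overlap. With tetracycline the ratio was 2.69 and 0.820 against 3.7998 and 2.47, and the groups overlapped.

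A list of genes for IgA transport and plasma cell support gave 1 of 16 tested genes called without tetracycline, against 1.22% of all genes called lower, and 0 of 16 with it. The called gene was Tnfrsf13c, the receptor through which B cells receive the survival factor BAFF (log2 change -2.26, SE 0.47, adjusted p 2.1e-04 per the authors' deposited table). Pigr, the epithelial carrier of polymeric IgA, had log2 changes of 0.44 (SE 0.25, adjusted p 0.56) and -0.02 (SE 0.47) per the authors' deposited tables without and with tetracycline. The list's median was -0.87 without and -1.39 with tetracycline.

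Some markers of other cell types were called in the same comparison, to be read against 1.22% of all genes called lower and 1.06% higher. Without tetracycline, called lower were 1 of 11 myeloid markers (Lyz2), 3 of 10 stromal markers (Col3a1, Col1a1 and Col1a2), 5 of 5 listed erythrocyte markers and 0 of 13 T cell markers, whose signs were all negative. Of the 11 listed germinal centre and Peyer's patch markers, Mef2b was called lower and Clu, a secreted chaperone, higher. With tetracycline 0 of each of these lists were called, where the background was 0.267% lower and 0.333% higher. The epithelial markers had 0 of 10 called in either table, with median log2 changes of -0.02 and 0.17. T cell, myeloid and stromal sums followed the library order of the immunoglobulin sums in both tables. T cell sums, over the markers whose counts could be recovered, were 4037 and 8318 in fasted against 10039 and 13134 in fed libraries, without tetracycline; with it they were 4604 and 681 against 13939 and 3089. Myeloid sums were 2332 and 3883 against 4783 and 7890 without tetracycline, and 6100 and 1251 against 16126 and 6094 with it; stromal sums were 970 and 1806 against 1885 and 3289, then 2460 and 864 against 4479 and 1829. The hemoglobin gene Hbb-bs was the 1 erythrocyte marker with no row in either table. With tetracycline the size factors stood in that order too, 1.27 and 0.927 for the fed libraries, 1.22 and 0.727 for the fasted; without it they did not. Germinal centre sums followed that order in neither table, and erythrocyte sums did not with tetracycline. The germinal centre list summed to 5402 and 3014 in fasted against 1991 and 2546 in fed libraries without tetracycline. Clu alone gave 2864 and 681 of these fasted sums and 69 and 107 of the fed sums. With tetracycline the list summed to 2966 and 2684 against 3337 and 2452. The 2 erythrocyte markers with recovered counts summed to 494 and 747 against 2124 and 5653 without tetracycline, in the order of the immunoglobulin sums, and to 1437 and 293 against 2243 and 1851 with it. The erythrocyte groups overlapped in neither table. The part of these lists and of depth in the antibody changes was not tested.

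Levels with and without tetracycline come from different tables, which were scaled separately. The centre was the median log2 ratio, with a pseudocount of 1, of genes with a mean of at least 1 both without and with tetracycline. After centring, the summed immunoglobulin level was 0.44 lower on the log2 scale with tetracycline in fed mice and 0.21 lower in fasted mice. Both differences are smaller than the spread between libraries of a table, where the SD of the log2 sum was 0.87 without and 1.75 with tetracycline, and no test was run. Among the classes in fed mice the values ran from -0.26 for heavy constant genes to -1.10 for lambda V segments.

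The deposited tables leave some immunoglobulin rows without a symbol. GENCODE M21 names 56 such rows by the same rule without tetracycline and 51 with it, nearly all heavy V segments. Of the 28 with an adjusted p without tetracycline, 5 were called in the authors' deposited table, all lower, against 1.22% of all genes called lower, and of the 16 with tetracycline 0 were. The IgG subclass gene Ighg1 was among them, at 44.9 and 174 normalized counts in fasted against 266 and 581 in fed libraries (log2 change -1.95, SE 0.56, adjusted p 0.0285 per the authors' deposited table). With tetracycline it had 466 and 16.5 against 2069 and 263. The others were Ighv3-6, Ighv8-5, Ighv1-9 and Ighv1-81; Ighv3-6 had 2.75 and 6.45 in fasted against 101 and 87.4 in fed libraries (adjusted p 9.53e-07 per the authors' deposited table). Counting these rows raised the members called without tetracycline from 19 to 24.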

How the data were processed

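RNA was made into libraries with a kit that does not mark strand, per the labels' protocols, so overlapping antisense reads cannot be told apart. The submitters' processing notes name Salmon, DESeq2 and mm10; versions and the annotation release are not given in the sources used here. Per the file headers, the authors deposited for each comparison a mean normalized signal per gene, a log2 fold change with its standard error, the Wald score, and p-values raw and adjusted; these were used as deposited. No column states the direction: fasted over fed is read from the word order of the tables' names. There were 0 unused per-sample columns.

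Each deposited mean was solved for the 4 whole counts behind it and checked against the deposited fold change, which it met with a median error of 2.34e-06 and 2.82e-06 on the log2 scale. For 139 of 142 and 138 of 140 members 1 solution fitted the mean, and for the others the one matching the fold change was taken. Over all genes this was done up to a mean of 200, and for members and marker lists up to 3000. The decoding and the difference test were tested on simulated data. Intervals cover counting error only. Gene IDs matched GENCODE M21 without version for 99.3% and 99.2%, and for 146 of 146 members. Python 3.11.15, numpy 2.4.6, pandas 2.3.3, scipy 1.17.1 and statsmodels 0.14.6 were used.

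The members, the marker lists and the tests were chosen with earlier results of these data known. Named by rule were the constant genes, Jchain and Ighmbp2, the 10 V segments with the highest mean, the 5 called members with the largest change in each table and direction, members called for the difference, and up to 8 called genes of each list. Other names, such as Igkv6-23, Igkv4-55, Ighv7-3, Ighv3-3, Igkv15-103, Igkv9-120, Ighv3-6 and Pigr, were chosen after their values were seen. Alternatives were the threshold, filters on the mean, pseudocounts, centring, the summed members and each library left out.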

Additional observations from a re-analysis of the deposited data

How the results depend on the processing

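Of 50 alternative values, 47 kept their direction and moved by less than the spread between libraries (1 SD) or, for counts, stayed within 1.5 times; 3 moved further and 0 reversed. At an adjusted p of 0.01 in place of 0.05, 11 members were called without tetracycline. The share of all genes called at 0.01 was not taken, so this count has no background beside it. Leaving out 1 library moved the log2 change of the summed immunoglobulin level between -2.57 and -1.12 without tetracycline and between -3.65 and -0.34 with it; the lowest of these values came without fasted library 2 and without fasted library 1, respectively. With tetracycline, leaving out fasted library 2 (-0.61), fed library 1 (-0.34) or fed library 2 (-2.06) also changed the fold by over 1.5 times, though within that spread. A pseudocount of 1 on the rebuilt means gave medians of -1.62 and -1.23. Adding rows named by GENCODE and taking side means from the whole counts were chosen after seeing the data. The calls could not be repeated with a library left out, because counts for all genes were recovered only up to a mean of 200. No paired analysis was possible because the tables carry no replicate numbers and each group has 1 labelled sample. No count was found in either fasted library for 22 members without tetracycline and 18 with it, and in either fed library for 2 and 1.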

Other observations

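The highest fitted changes in the fasted direction rested on 1 library each. Igkv14-130 had 26.9 normalized counts in the second fasted library without tetracycline and 0 in the other 3. Igkv4-69 had 51.01 in the first fasted library with tetracycline, 0 in the other fasted and the first fed library, and 2.16 in the second fed library. Neither was called (adjusted p 0.745 for Igkv14-130 and 0.99991 for Igkv4-69 in the authors' deposited tables).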
